A study of Mus musculus with 12 samples.

Results

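Imprinted genes are transcribed mainly or only from the copy inherited from one parent. The 46 mouse genes described here were named beforehand as imprinted, and their probe sets were found by matching these symbols to the platform's probe annotation. A probe set with a single symbol was found for 45 of the 46, 99 probe sets in all, out of 16509 genes on 37600 probe sets tested. Kcnk9 had none and was not analysed here. Another 7 probe sets list a member beside a second symbol (6 Snurf with Snrpn, 1 Airn with Igf2r) and are not counted among the 99. The study asked how F9 cells, a mouse teratocarcinoma line that resembles early embryonic cells and differentiates with retinoic acid, respond to that ligand with and without the retinoic acid receptor alpha gene, Rara. There were 4 groups of 3 arrays: WT cells in ethanol vehicle, WT cells in all-trans retinoic acid (atRA), RARaKO cells in vehicle and RARaKO cells in atRA. In all 4 groups the cells had been in the protein synthesis inhibitor cycloheximide (1 µg/ml) for 30 min before they were given 1 µM atRA or 0.1% ethanol for 7.5 h, so every value below, controls included, is from cells with protein synthesis inhibited for 8 h. The labels number the arrays of each group as sets 2, 3 and 4. They do not say how Rara was disrupted, nor whether the RARaKO cells are a single clone, so a difference due to the loss of Rara and a difference between cell lines cannot be told apart.

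As background, the choice of allele is set in the germ line by DNA methylation at imprinting control regions, or, for a smaller group that includes Slc38a4, Sfmbt2 and Gab1, by trimethylation of histone H3 at lysine 27 on the maternal copy. Many imprinted genes lie in clusters that share a control region, and neighbours within a cluster can be expressed from opposite parental copies. As a class they are known for effects on fetal and placental growth. The arrays measure total transcript, so which parental copy gave rise to it is not in these values.

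Values are taken as log2 and were deposited as differences from the probe set's median across all 12. A value of 0 is thus the middle array, differences between groups can be read, and levels of different genes cannot be compared. A coarse level class could still be recovered: 24 of the 45 members (53.3%) lay at 8 or above on the original scale by the probe set that stood for them, as did 52.9% of all 16509 genes, and 20 lay between 4 and 8. Errors after ± are standard errors of the limma fit with 3 arrays per group, p-values were adjusted by Benjamini-Hochberg over all 37600 probe sets, and "called" means an adjusted p under 0.05. The single Rara probe set did not fall in the arrays labelled RARaKO but was higher there, by 0.90 in vehicle (adjusted p = 1.50e-04) and by 0.36 in atRA (adjusted p = 0.0488). It therefore does not check the label, and every genotype difference below is between arrays so labelled. Cyp26a1, the retinoic acid degrading enzyme and a direct target, rose with atRA by 1.35 in WT cells and by 1.38 in the arrays labelled RARaKO. Rarb, the beta receptor gene and also a direct target, rose by 1.35 and 0.95. Rara itself rose by 0.45 in WT cells (adjusted p = 0.0460) and gave -0.10 in the arrays labelled RARaKO (adjusted p = 0.839). For none of these 3 genes was the difference between the responses called. Markers of undifferentiated F9 cells (8 of 8 measured), endoderm (10 of 10), trophoblast (6 of 7) and fibroblasts (5 of 7) held no called gene in any of the 5 comparisons, with list medians between -0.11 and 0.11. All 8 of the undifferentiated markers and none of the 5 fibroblast markers were in the highest level class. The mean signal of 5′ over 3′ control probes for 4 genes lay between -0.12 and -0.08 in WT vehicle, below each of the other 9 arrays (-0.02 to 0.13). This measure of RNA quality thus moved with the WT vehicle group, and its part in the results that use that group was not tested. The RARaKO atRA array of set 2 stood farthest out on the first principal component, at -28.3 against -16.9 to -9.10 for the other 5 arrays so labelled.

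The promoters of the 5 members on which the results turn most are shown here because many imprinted promoters are rich in CG pairs, the sites of DNA methylation. Each run is the 250 bases before an annotated start in RefSeq (GRCm38.p6), 5′ to 3′ on the gene's strand, with every CG pair in capitals. Where RefSeq lists several starts, the window with the most CG pairs was taken.
Slc38a4, chr15:97031214-97031463, minus strand: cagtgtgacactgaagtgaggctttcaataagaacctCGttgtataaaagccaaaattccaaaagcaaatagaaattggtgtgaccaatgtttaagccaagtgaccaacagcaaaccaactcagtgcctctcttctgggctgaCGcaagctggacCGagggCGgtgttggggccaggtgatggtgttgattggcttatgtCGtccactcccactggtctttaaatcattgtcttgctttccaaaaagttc
Sfmbt2, chr2:10372186-10372435, plus strand: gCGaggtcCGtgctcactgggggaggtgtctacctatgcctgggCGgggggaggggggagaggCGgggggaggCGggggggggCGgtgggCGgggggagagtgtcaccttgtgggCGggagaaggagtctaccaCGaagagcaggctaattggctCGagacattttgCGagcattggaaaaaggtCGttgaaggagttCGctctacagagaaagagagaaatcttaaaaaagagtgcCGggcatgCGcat
Mest, chr6:30737800-30738049, plus strand: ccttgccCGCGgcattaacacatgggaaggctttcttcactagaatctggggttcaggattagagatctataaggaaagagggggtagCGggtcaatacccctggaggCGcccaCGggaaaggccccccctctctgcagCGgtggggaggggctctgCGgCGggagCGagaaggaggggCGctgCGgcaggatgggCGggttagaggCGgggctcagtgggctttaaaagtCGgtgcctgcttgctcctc
Grb10, chr11:12037421-12037670, minus strand: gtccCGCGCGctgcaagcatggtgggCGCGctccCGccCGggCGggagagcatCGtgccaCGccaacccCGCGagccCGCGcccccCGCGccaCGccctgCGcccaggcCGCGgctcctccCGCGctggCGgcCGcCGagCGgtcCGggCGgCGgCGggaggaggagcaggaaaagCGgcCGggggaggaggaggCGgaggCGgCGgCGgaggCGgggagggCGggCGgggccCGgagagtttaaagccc
Peg12, chr7:62464511-62464760, minus strand: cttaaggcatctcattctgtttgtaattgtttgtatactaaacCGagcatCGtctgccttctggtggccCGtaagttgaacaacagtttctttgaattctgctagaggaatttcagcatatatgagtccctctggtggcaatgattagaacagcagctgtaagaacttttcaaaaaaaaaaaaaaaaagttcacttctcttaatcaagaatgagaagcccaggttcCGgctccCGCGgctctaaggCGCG
The windows hold 5 CG pairs in Slc38a4, 8 in Peg12, 14 in Mest, 15 in Sfmbt2 and 40 in Grb10. A window was available for 36 members, whose median was 14 CG pairs, against a median of 6 over the windows of 27025 genes. Of the half-sites bound by retinoic acid receptors, the forms AGGTCA and AGTTCA alone were searched for, on either strand. At least 1 of them was found in 4 of the 36 members' windows (11.1%) and in 23.5% of all windows. Other forms, such as the GGTTCA and GGGTCA in the Mest window above, were not counted. Direct repeats of these 2 forms spaced by 1, 2 or 5 bases were in 0 of the 36, against 0.074%, 0.037% and 0.030% of all windows. With shares that low, 0 among 36 windows does not set the members apart. Among the 5 windows shown only that of Peg12 held 1 of the 2 forms searched for, an AGTTCA whose first base lies 63 bases before the start. A match is a description of letters in the window and not of binding.

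In vehicle, 7 of the 45 imprinted genes differed between the arrays labelled RARaKO and WT. Slc38a4, Sfmbt2, Mkrn3 and Peg12 were higher and Mest, Grb10 and Inpp5f were lower. That is 15.6% of the members, against 3.37% of all 16509 genes called in this comparison (2.04% higher and 1.33% lower). In atRA 5 members were called, Slc38a4 and Sfmbt2 higher and Mest, Grb10 and Cd81 lower, which is 11.1% against 3.51% of all genes (1.73% higher and 1.77% lower). In both genotype comparisons 4 members were called (Slc38a4, Sfmbt2, Mest and Grb10). The 2 differences are taken between separate arrays. They are not independent, since they come from 1 fit with a shared estimate of the spread and compare cells with the same 2 labels. The median absolute difference in vehicle was 0.13 over the members and 0.08 over all genes, while the median signed difference was -0.01 over the members and -0.02 over all genes. The members were listed with earlier results of these data in view, so these shares describe the list and are not a test of imprinted genes as a class. Fewer cells that express a gene and less RNA per cell cannot be told apart in such bulk samples. With the set number as a block (same-numbered arrays deviated together in vehicle), 9 members were called in vehicle, the 7 above with Cd81 (adjusted p = 0.0251) and Cdkn1c (adjusted p = 0.0358).

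**Figure D1:**
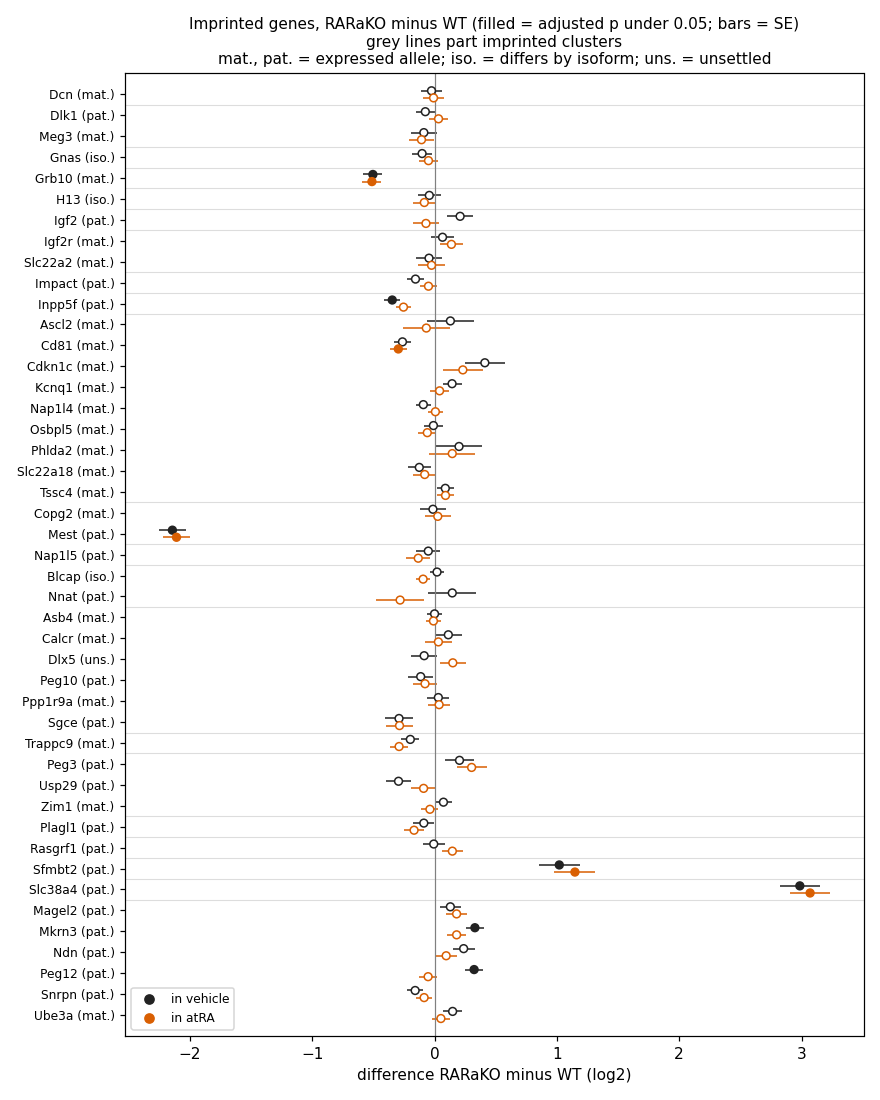
Difference between the arrays labelled RARaKO and WT (x axis, log2) for each of the 45 imprinted genes (y axis, grouped by imprinted cluster) in vehicle (black) and in atRA (orange), with standard errors as bars and filled points for an adjusted p under 0.05. Slc38a4 and Mest lie far from the rest on opposite sides, at 2.99 and -2.14 in vehicle, and most other members lie within 0.3 of 0.

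Slc38a4 encodes an amino acid transporter of the placenta and liver and is expressed from the paternal copy. It read -1.76, -1.70 and -1.48 in WT vehicle and -1.69, -2.00 and -1.21 in WT atRA (sets 2, 3 and 4). In RARaKO vehicle the arrays read 1.34, 1.34 and 1.33, and in RARaKO atRA 1.21, 1.63 and 1.47. All 6 arrays labelled RARaKO thus lay above all 6 WT arrays, with a gap between the groups wider than the spread within any of them. The difference was 2.99 ± 0.16 in vehicle, 7.92-fold (adjusted p = 1.11e-06), and 3.07 ± 0.16 in atRA, 8.40-fold (adjusted p = 6.76e-07). In both comparisons this was the highest difference of all 16509 genes. The second probe set of the gene gave 2.67 ± 0.09 in vehicle and 2.71 in atRA, both called. With atRA it moved by 0.01 ± 0.16 in WT cells and 0.10 ± 0.16 in the arrays labelled RARaKO, neither of which was called. The neighbouring transporter genes Slc38a1 and Slc38a2, which are not imprinted, gave 0.16 and -0.03 in vehicle and were not called.

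Mest, a paternally expressed gene of the hydrolase fold family that is active in embryonic mesoderm, went the other way. It read 1.01, 1.27 and 1.28 in WT vehicle, and 0.89, 0.96 and 0.96 in WT atRA. In RARaKO vehicle it read -0.89, -0.97 and -1.01, and in RARaKO atRA -1.27, -1.36 and -0.89. The WT arrays and those labelled RARaKO did not overlap in either medium. The difference was -2.14 ± 0.11 in vehicle, 4.42-fold lower (adjusted p = 6.73e-07), and -2.11 ± 0.11 in atRA, 4.32-fold lower (adjusted p = 6.76e-07), the second lowest of all genes in each. Copg2, a coat protein gene next to Mest in the same cluster that is expressed mainly from the maternal copy, gave -0.01 ± 0.10 in vehicle (adjusted p = 0.973). Klf14, a maternally expressed gene nearby, gave -0.05 (adjusted p = 0.798).

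Sfmbt2, a Polycomb group gene expressed from the paternal copy in early embryos and trophoblast, read -0.16, -0.49 and -0.37 in WT vehicle. In WT atRA it read -0.57, -1.04 and -0.44. In RARaKO vehicle it read 0.73, 0.85 and 0.45, and in RARaKO atRA 0.66, 0.57 and 0.16. The groups did not overlap by genotype, though the spread within a group was wider than for Slc38a4. The difference was 1.02 ± 0.17 in vehicle, 2.03-fold (adjusted p = 0.00545), and 1.15 ± 0.17 in atRA, 2.21-fold (adjusted p = 0.00245). It was lost without set 3 in vehicle (0.86, adjusted p = 0.0892), and in atRA without set 2 or set 3 (adjusted p = 0.0598 to 0.0610). Its second probe set, in the lower level class, gave 0.14 ± 0.09 in vehicle and 0.24 in atRA and was not called. Gm13261, a long noncoding RNA gene next to Sfmbt2 that RefSeq does not place within it, was called higher in both, by 0.97 in vehicle and 1.02 in atRA. Its arrays labelled RARaKO lay between 0.34 and 0.63 and its WT arrays between -0.74 and -0.34.

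Grb10, which encodes an adaptor that restrains insulin and growth factor signalling, is maternally expressed in most tissues and was lower. WT vehicle read 0.39, 0.41 and 0.28, and WT atRA 0.29, 0.06 and 0.09. RARaKO vehicle read -0.25, -0.06 and -0.12, and RARaKO atRA -0.43, -0.31 and -0.36. No array labelled RARaKO reached the lowest WT array of the same medium. The difference was -0.50 ± 0.08 in vehicle (1.42-fold, adjusted p = 0.00334) and -0.51 ± 0.08 in atRA (1.43-fold, adjusted p = 0.00304). The call was lost without set 3 or 4 in vehicle (adjusted p = 0.0669 to 0.0709) and without set 2 or 4 in atRA (adjusted p = 0.0622 to 0.0683). The other probe sets of the gene, both in the lower level class, gave -0.13 and -0.19 in vehicle and were not called, and the mean over the 3 probe sets in atRA was -0.20 (adjusted p = 0.0862).

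Inpp5f, a phosphoinositide phosphatase gene with a paternally expressed variant in brain, read 0.33, 0.31 and 0.24 in WT vehicle and -0.10, -0.03 and -0.03 in RARaKO vehicle. The groups did not overlap, and the difference was -0.35 ± 0.06 (adjusted p = 0.0109). In atRA the difference was -0.25 ± 0.06 and narrowly missed the threshold (adjusted p = 0.0516). The 3 probe sets of Inpp5f disagreed in atRA: 2 lay below 0, the lowest at -0.33, and 1 above, at 0.42, with none called. The vehicle call was lost without the RARaKO vehicle array of set 2 (adjusted p = 0.0537), without any whole set (adjusted p = 0.112 to 0.155), and with the mean of its 3 probe sets (-0.14, adjusted p = 0.243). Cd81, a tetraspanin gene at the edge of the Kcnq1 cluster whose maternal bias is known from placenta, read 0.04 on all 3 WT atRA arrays and -0.15, -0.36 and -0.26 on the RARaKO atRA arrays. Its difference was -0.30 ± 0.07 in atRA (adjusted p = 0.0388) and -0.26 ± 0.07 in vehicle (adjusted p = 0.0670). The atRA call was lost without any of 8 single arrays: WT vehicle set 4, all 3 WT atRA arrays, RARaKO vehicle sets 2 and 4, and RARaKO atRA sets 3 and 4 (adjusted p = 0.0513 to 0.128). It was also lost without any whole set (adjusted p = 0.104 to 0.291) and in a fit on the 6 atRA arrays alone (adjusted p = 0.121).

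**Figure D2:**
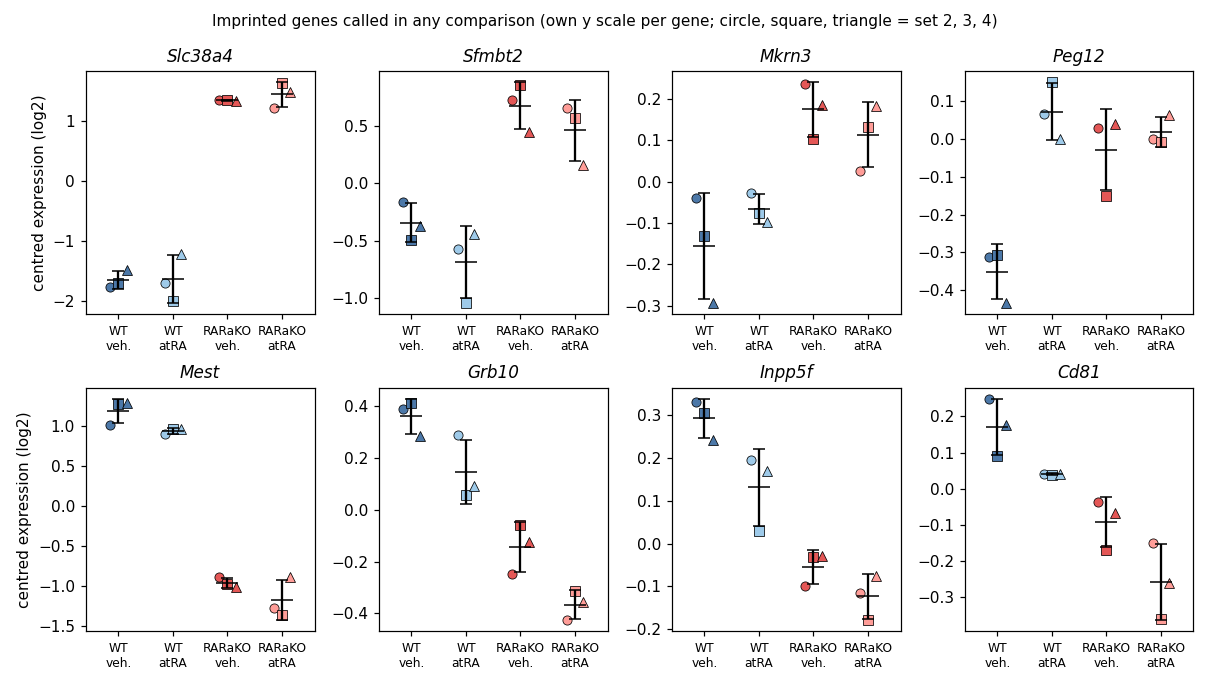
Expression relative to each probe set's median (y axis, log2, own scale per gene) on each of the 12 arrays by group (x axis) for the 8 imprinted genes called in any comparison; circles, squares and triangles are sets 2, 3 and 4, and black bars give the group mean and SD. Slc38a4 and Mest part the genotypes with no overlap in either medium, and Peg12 is low in WT vehicle alone, between -0.43 and -0.31.

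The cluster around Snrpn on mouse chromosome 7, the counterpart of the Prader-Willi and Angelman region, held 6 members. Of these Mkrn3 and Peg12 were called higher in vehicle and none was called in atRA. Mkrn3, an intronless gene for a ring finger protein, read -0.04, -0.13 and -0.29 in WT vehicle and 0.24, 0.10 and 0.18 in RARaKO vehicle. The difference was 0.33 ± 0.07 in vehicle (adjusted p = 0.0321) and 0.18 ± 0.07 in atRA (adjusted p = 0.227). The vehicle call was lost without any of 5 of the 6 vehicle arrays, all but that of WT set 2 (adjusted p = 0.0626 to 0.140), without any whole set (adjusted p = 0.0972 to 0.340), and on the vehicle arrays alone (adjusted p = 0.0764). Ndn and Magel2, paternally expressed genes of the MAGE family beside it, gave 0.24 (adjusted p = 0.212) and 0.13 (adjusted p = 0.546) in vehicle. Snrpn, which encodes a splicing protein, gave -0.16 (adjusted p = 0.265). Ube3a, a ubiquitin ligase gene counted here as maternally expressed, gave 0.15 (adjusted p = 0.395). Which copy F9 cells express was not measured. The 6 probe sets of Ube3a ran from -0.07 to 0.23 in vehicle with none called. Of the 7 probe sets that list a member beside a second symbol, 1 of the 6 for Snurf with Snrpn was called, at -0.43 in vehicle and -0.43 in atRA.

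Peg12, an intronless paternally expressed gene of the Frat family next to Mkrn3, was the member called in both a genotype comparison and a response to atRA. It read -0.31, -0.31 and -0.43 in WT vehicle, and 0.06, 0.15 and 0.00 in WT atRA. In RARaKO vehicle it read 0.03, -0.15 and 0.04, and in RARaKO atRA it lay between -0.01 and 0.06. The WT vehicle arrays were low and the other 9 lay together, from -0.15 to 0.15. In WT cells it rose with atRA by 0.42 ± 0.07 (1.34-fold, adjusted p = 0.0167), and in vehicle it was higher in the arrays labelled RARaKO by 0.32 ± 0.07 (1.25-fold, adjusted p = 0.0281). Both calls rest on the same 3 WT vehicle arrays, which are also the arrays that stood apart in the 5′ to 3′ control signal. In the arrays labelled RARaKO its response was 0.05 ± 0.07 (adjusted p = 0.917), and the difference between the responses was -0.38 ± 0.10, which was not called (unadjusted p = 0.00265, adjusted p = 1.00). The rise in WT cells was lost without any of 5 of the 6 WT arrays, all but that of WT atRA set 4 (adjusted p = 0.0516 to 0.0926), without any whole set (adjusted p = 0.235 to 0.289), and on the WT arrays alone (adjusted p = 0.0555). The vehicle difference was lost without any of 5 of the 6 vehicle arrays, all but that of RARaKO set 3 (adjusted p = 0.0593 to 0.130), without any whole set (adjusted p = 0.0845 to 0.358), and on the vehicle arrays alone (adjusted p = 0.0676).

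By the probe sets that stood for them, the other 37 members were called in none of the 5 comparisons. The second probe set of Igf2 was called in vehicle, as given below. In vehicle their differences ran from -0.30 for Usp29 to 0.41 for Cdkn1c, with 36 of the 37 within 0.3 of 0, and in atRA from -0.29 for Trappc9 to 0.30 for Peg3. A miss of the threshold does not show that the groups were alike: the median standard error of a difference over all probe sets was 0.088. Without overlap between the groups of 3 were 17 members in vehicle (37.8%, against 24.2% of all genes) and 11 in atRA (24.4%, against 21.5%).

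The Kcnq1 cluster, a run of maternally expressed growth regulators controlled from the start of the noncoding RNA Kcnq1ot1, held 9 members. None was called in vehicle and Cd81 was called in atRA. Cdkn1c, the cell cycle inhibitor of the cluster, read -0.15, 0.05 and 0.03 in WT vehicle and -0.03, 0.74 and 0.46 in RARaKO vehicle. The groups overlapped through the RARaKO array of set 2, and the difference of 0.41 ± 0.16 was not called (adjusted p = 0.235). Without that array it was 0.62 (adjusted p = 0.0371), and without all of set 2 it was 0.56 (adjusted p = 0.0369). Phlda2, a placental growth restrainer, gave 0.20 ± 0.19 in vehicle, and Kcnq1, a potassium channel gene, gave 0.14 ± 0.08. Slc22a18, Nap1l4, Osbpl5 and Tssc4 lay between -0.13 and 0.09.

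Igf2, the fetal growth factor, is paternally expressed, and its 2 probe sets disagreed. The probe set that stood for the gene gave 0.21 ± 0.11 in vehicle (adjusted p = 0.397), with WT arrays at -0.37, 0.05 and -0.02 and RARaKO arrays at 0.04, 0.23 and 0.02. The other gave -0.35 ± 0.07 (adjusted p = 0.0220), with WT vehicle at 0.28, 0.29 and 0.23 and RARaKO vehicle at -0.19, 0.00 and -0.04. Both were in the lower level class, and in atRA they gave -0.07 and -0.08. Igf2r, the maternally expressed receptor that clears Igf2, was read at 0.06 by one probe set and at 0.51 ± 0.15 (adjusted p = 0.0891) by the other in vehicle, both in the highest level class. Over all 99 probe sets, 9 were called in vehicle (9.09%, against 3.01% of all probe sets) and 6 in atRA (6.06%, against 3.12%).

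**Figure D3:**
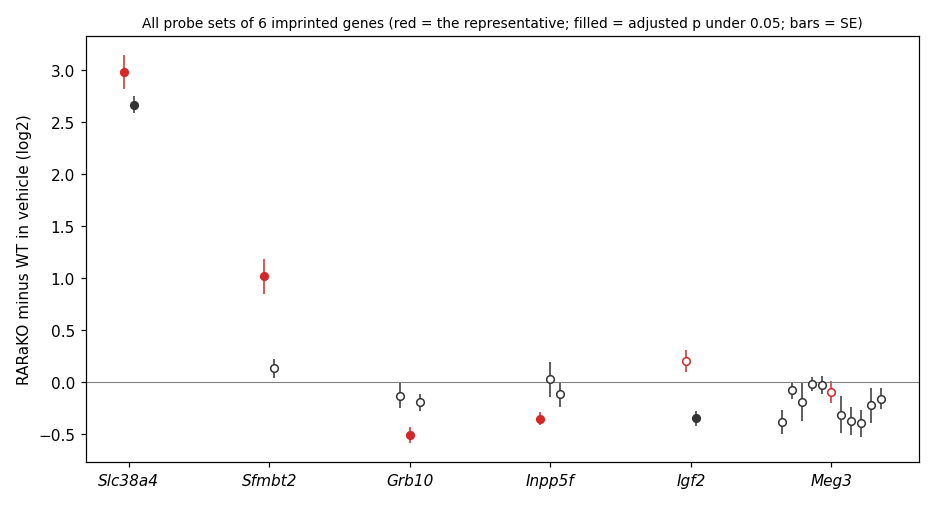
Difference between the arrays labelled RARaKO and WT in vehicle (y axis, log2) for every probe set of 6 imprinted genes (x axis), with standard errors as bars; red points are the probe sets that stand for the gene, and filled points have an adjusted p under 0.05. The 2 probe sets of Slc38a4 lie together at 2.67 and 2.99, those of Sfmbt2 lie apart at 1.02 and 0.14, and those of Igf2 lie on opposite sides of 0.

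In the Dlk1 cluster, Dlk1, a paternally expressed ligand of the Notch family, gave -0.08 ± 0.08 in vehicle. Its other probe set gave 0.14 and was not called. Meg3, the maternally expressed noncoding RNA of that cluster, gave -0.09 ± 0.11 by the probe set that stood for it, and its 11 probe sets ran from -0.39 to -0.01 with none called. In the Peg10 cluster Sgce, a paternally expressed sarcoglycan gene, gave -0.29 ± 0.11 in vehicle (adjusted p = 0.229). The other probe set of Sgce went the other way, at 0.24, and was not called. By the probe sets that stood for them, Peg10, Ppp1r9a, Asb4, Calcr and Dlx5 lay between -0.11 and 0.11. The 5 probe sets of Ppp1r9a ran from -0.29 to 0.03 with none called. In the Peg3 cluster Usp29, a paternally expressed deubiquitinase gene, read 0.04, 0.28 and 0.11 in WT vehicle and -0.25, -0.22 and 0.02 in RARaKO vehicle. That difference of -0.30 ± 0.10 was not called (adjusted p = 0.182). Peg3, the zinc finger gene that shares its promoter region, read 0.07, -0.03 and -0.07 in WT vehicle and 0.20, 0.36 and 0.02 in RARaKO vehicle, an overlapping 0.20 ± 0.12 (adjusted p = 0.479). Of the 3 probe sets for Peg3, 2 lay below 0 in vehicle, the lowest at -0.23, and none was called. Zim1, in the same cluster, gave 0.07 ± 0.07. Trappc9, a trafficking complex gene, gave -0.20 in vehicle (adjusted p = 0.205) and -0.29 in atRA (adjusted p = 0.0546). In atRA 2 of its 3 probe sets lay above 0, the highest at 0.04, and none was called. By the probe sets that stood for them, Impact, Gnas, H13, Blcap, Plagl1, Nap1l5, Dcn and Slc22a2 lay between -0.16 and 0.02 in vehicle. The lowest was Impact, whose vehicle groups did not overlap (adjusted p = 0.274). Other probe sets of Impact, Gnas, H13 and Plagl1 lay above 0 in vehicle, the highest at 0.24 for H13, and none was called.

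By expressed allele, as known from other work, 20 members are paternally expressed. Of these 4 were higher and 2 lower in vehicle, and 2 were higher and 1 lower in atRA. Among the 21 maternally expressed members, 0 were higher and 1 lower in vehicle, and 0 were higher and 2 lower in atRA. In 3 further members the allele differs by isoform and in 1, Dlx5, it is unsettled. None of those was called in either genotype comparison. Of all genes, 2.04% were called higher and 1.33% lower in vehicle, and 1.73% higher and 1.77% lower in atRA. The median difference in vehicle was -0.03 over the paternally expressed and -0.00048 over the maternally expressed members. The 8 members called in either genotype comparison lie in 7 clusters, and the Snrpn cluster was the one with 2 of them.

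With atRA, 1 of the 45 members was called in WT cells, Peg12 (2.22%, against 0.806% of all genes), and 10 had an unadjusted limma p under 0.05 (22.2%, against 7.84% of all genes). In the arrays labelled RARaKO none was called (against 0.412% of all genes), with 3 members at an unadjusted limma p under 0.05 (6.67%, against 8.57% of all genes). No gene of the 16509 was called for the difference between the responses (0% called), where 1 member, Peg12, had an unadjusted limma p under 0.05 (2.22%, against 2.59% of all genes). With the set number as a block 2 members were called in WT cells, Peg12 and Rasgrf1 (-0.30, adjusted p = 0.0498), and 1 in the arrays labelled RARaKO, Ascl2 (-0.67, adjusted p = 0.0467). In WT cells 28 of 45 members had a difference below 0, as did 9269 of 16509 genes, and the medians were -0.05 and -0.01. In the arrays labelled RARaKO 34 of 45 were below 0, against 9095 of all genes, with medians of -0.06 and -0.01. Without overlap between atRA and vehicle in WT cells were 10 members on the lower side (22.2%, against 8.47% of all genes) and 1 on the higher (2.22%, against 6.51%). In the arrays labelled RARaKO 3 members did not overlap, all on the lower side (6.67%, against 6.37% of all genes).

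**Figure D4:**
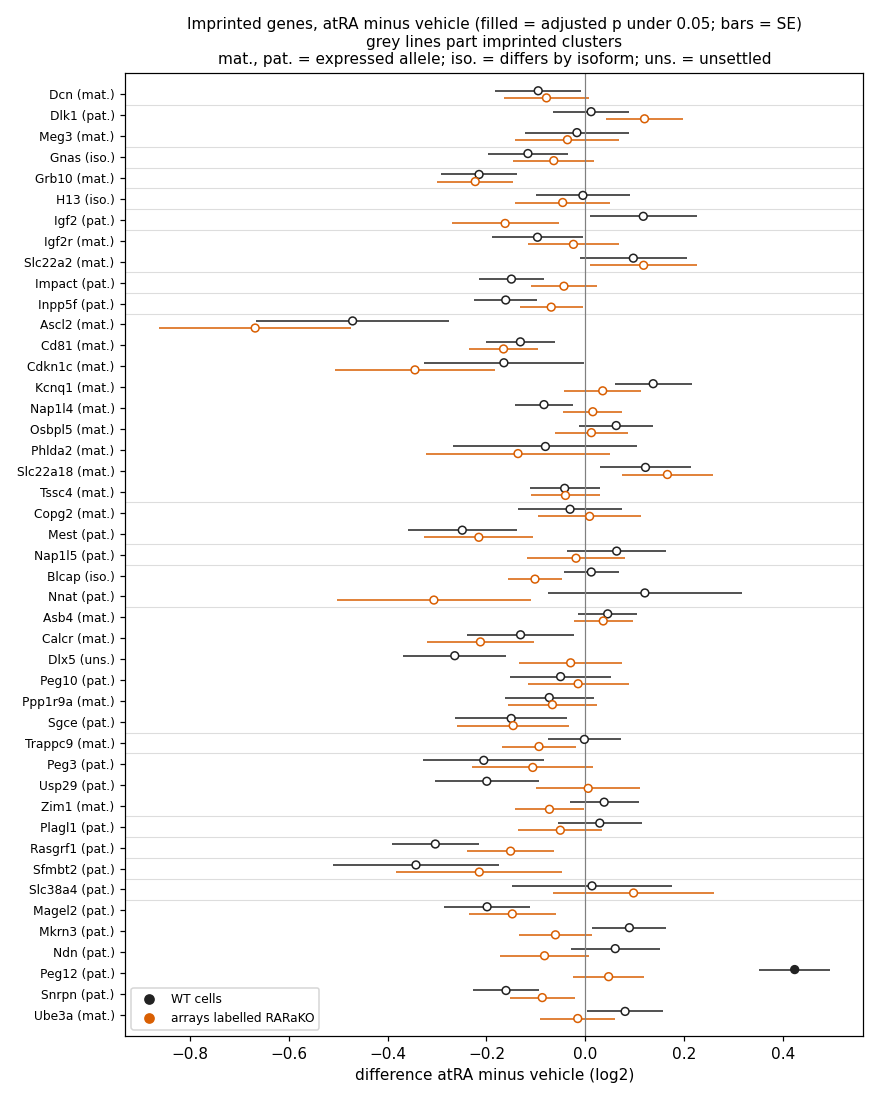
Difference between atRA and vehicle (x axis, log2) for each of the 45 imprinted genes (y axis, grouped by imprinted cluster) in WT cells (black) and in the arrays labelled RARaKO (orange), with standard errors as bars and filled points for an adjusted p under 0.05. Peg12 in WT cells, at 0.42, is the filled point, and Ascl2 lies lowest in both genotypes, at -0.47 and -0.67.

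Ascl2, a maternally expressed factor needed for trophoblast, had the lowest responses among the members. It read -0.01, 0.26 and 0.45 in WT vehicle and -0.67, -0.05 and 0.01 in WT atRA, which overlap. In RARaKO vehicle it read 0.18, 0.71 and 0.20, and in RARaKO atRA -0.51, -0.07 and -0.33, which do not. The differences were -0.47 ± 0.19 (adjusted p = 0.604) and -0.67 ± 0.19 (adjusted p = 0.297), and its other 2 probe sets were also below 0 in each genotype. Rasgrf1, a paternally expressed exchange factor for Ras, read 0.00, 0.04 and 0.21 in WT vehicle and -0.38, -0.22 and -0.05 in WT atRA, a difference of -0.30 ± 0.09 without overlap that was not called (adjusted p = 0.268). In the arrays labelled RARaKO it gave -0.15 ± 0.09. Its other probe set gave 0.05 in WT cells and 0.04 in the arrays labelled RARaKO. Dlx5, a homeobox gene whose imprinting in mouse is unsettled, gave -0.26 ± 0.10 in WT cells (adjusted p = 0.573) and -0.03 ± 0.10 in the arrays labelled RARaKO. Its WT vehicle arrays read -0.08, 0.40 and 0.16 and its WT atRA arrays -0.08, -0.19 and -0.04. Nnat, a paternally expressed gene for a small membrane protein, gave 0.12 ± 0.20 and -0.31 ± 0.20, with RARaKO atRA arrays spread from -0.71 to 0.27. Of the 11 probe sets for Meg3, 5 had an unadjusted p under 0.05 in WT cells, with values from -0.58 to -0.41, and 4 in the arrays labelled RARaKO, from -0.37 to -0.31. None was called, and the probe set that stood for the gene gave -0.02 and -0.04. Rian, a noncoding RNA gene of the same cluster, gave -0.41 and -0.35 and was not called.

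Among genes that set or keep imprints, 26 of 28 had a probe set, and none was called in any comparison by the probe set that stood for it. One other probe set of Hells, a chromatin remodelling gene, was called lower in vehicle (-0.45, adjusted p = 0.00963) and in atRA (-0.35, adjusted p = 0.0352), while the one that stood for it gave -0.07 in vehicle. They include the DNA methyltransferases Dnmt1, Dnmt3a, Dnmt3b and Dnmt3l, the protective zinc finger proteins Zfp57 and Zfp445 with their partner Trim28, and the Polycomb genes Ezh2, Eed and Suz12. Dnmt1 gave -0.05 in vehicle, Zfp57 -0.08, Trim28 -0.01, Ezh2 -0.07 and Eed 0.08. By the probe sets that stood for the genes, the values farthest from 0 in vehicle were 0.81 for Atrx (adjusted p = 0.163) and 0.54 for Zfp445 (adjusted p = 0.0860). The probe sets of each gene disagreed. Those of Atrx ran from -0.12 to 0.82, and the others of Zfp445 gave 0.07 and 0.13, with none called. Of 36 further imprinted genes outside the members, 24 had a probe set, and by the probe sets that stood for them Gab1 was called in both genotype comparisons and no other in any comparison. One other probe set of Mirg, a noncoding RNA gene of the Dlk1 cluster, was called lower in vehicle (-0.54, adjusted p = 0.00627) and in atRA (-0.70, adjusted p = 0.00107), while the one that stood for it gave -0.20 and -0.06. Gab1, a docking protein of receptor tyrosine kinase signalling that is paternally expressed in placenta, read 1.26, 1.16 and 1.24 in WT vehicle and -1.09, -1.10 and -1.02 in RARaKO vehicle. Its difference of -2.29 (4.89-fold, adjusted p = 3.24e-09) was the lowest of all genes in vehicle, ahead of Mest, and its 3 probe sets gave -2.30, -2.29 and -1.93. Among 5 measured genes known for imprints that rest on histone methylation, Slc38a4 and Sfmbt2 were higher, Gab1 was lower, and Jade1 (-0.29, adjusted p = 0.0624) and Smoc1 (-0.02) were not called in vehicle. That list was drawn up with these calls known.

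The genes around the 8 called members were read for whether the differences ran beyond them. The 3 nearest measured genes on each side made 44 distinct genes, since Mkrn3 and Peg12 share most of theirs. In vehicle 3 of the 44 were called (3.37% of all genes were), namely Gm13261 beside Sfmbt2, and Mkrn3 and Peg12 as neighbours of each other. Mkrn3 and Peg12 had already been picked as called members, so their calls were fixed by the choice of genes. The count of 3 is thus not to be set against that share. In atRA Gm13261 alone of the 44 was called (3.51% of all genes were). The 6 neighbours of Mest lay between -0.12 and 0.12 in vehicle, those of Slc38a4 between -0.23 and 0.16, and those of Grb10 between -0.06 and 0.18.

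**Figure D5:**
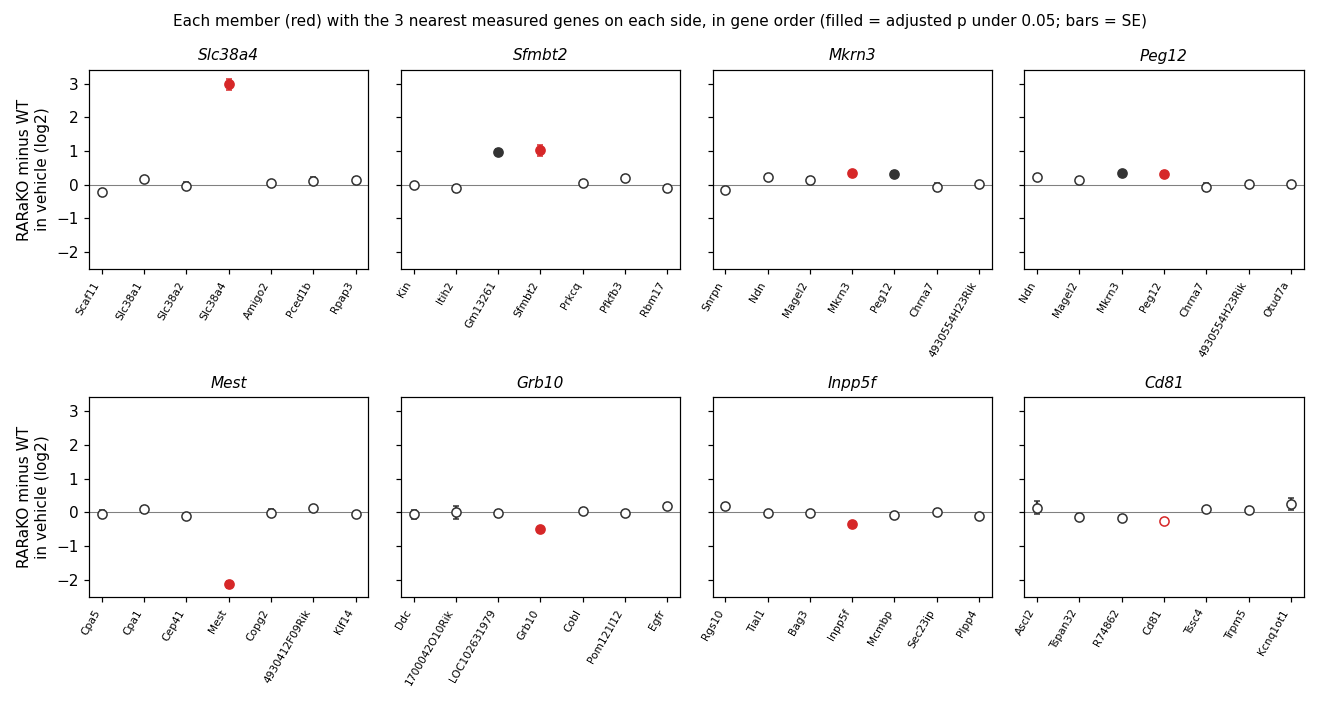
Difference between the arrays labelled RARaKO and WT in vehicle (y axis, log2) for each of the 8 called imprinted genes (red) and the 3 nearest measured genes on each side (black; x axis, gene order along the chromosome), with standard errors as bars and filled points for an adjusted p under 0.05. Beside Slc38a4, Mest, Grb10 and Inpp5f no neighbour is filled, and beside Sfmbt2 only Gm13261 is, at 0.97.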

How the data were processed

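Total RNA of F9 cells was hybridised to 12 Affymetrix mouse expression arrays. The values the authors deposited are log2 expression per probe set, made with GCRMA per the submitters' processing notes; the log base is not given in the sources used here and was taken as log2, the scale GCRMA gives. Each probe set was found to be centred on its median over the 12 arrays, which no label records, so filters on level and ranks by level were replaced by a level class recovered from the spacing of the stored single-precision values (right for 98.8% of 20000 simulated probe sets). Of 37661 probe sets 61 controls were left out. Among the 37600 tested, 30488 had 1 symbol in the probe annotation, 784 several and 6328 none. The number of arrays limits the precision.

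Groups came from the labels. All 12 arrays entered 1 limma 3.58.1 fit (R 4.3.3, lmFit and eBayes, 4 group means, 8 residual and 4.60 prior degrees of freedom, no block), which was tested on simulated data. P-values are two-sided, adjusted by Benjamini-Hochberg, and the labels do not say that the sets came from separate cultures, so p-values measure only a spread between samples that could be technical. For a gene with several probe sets (22 members), the one with the highest level class, then the least ambiguous type, then the lowest identifier stood for it. Per-array values are given for members called in any comparison and for up to 6 members with the largest absolute difference in each comparison, and neighbours are the 3 nearest measured genes on each side. Values of other members are given by cluster or as a range over several clusters. Values of other probe sets are given for some of the members whose probe sets disagree. The members and gene lists were chosen with earlier results of these data known. Same-numbered arrays deviated together in the WT response (r from 0.101 to 0.392 over all probe sets, 3 pairs), the RARaKO response (0.117 to 0.497) and the vehicle comparison (0.116 to 0.238). They did so less in the atRA comparison (0.0375 to 0.287). The set number as a block, other normalizations, weights, filters and left-out arrays were tried as alternatives. Promoter windows and gene order are from RefSeq (GRCm38.p6).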

Additional observations from a re-analysis of the deposited data

How the results depend on the processing

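Of the differences of the named members under the alternatives, 1722 stayed on the same side of the threshold, 15 passed it newly and 52 no longer passed it. Among values called in the main fit or the alternative, 0 changed direction. The 1722 include uncalled values whatever their direction, so changes of direction among those were not counted. Slc38a4 was called in both genotype comparisons under each alternative run, and Mest under each alternative that held it. The fit on the level class of at least 8 alone left Mest out. The counts of called members moved by more than 1.5 times as follows. In WT cells the block gave 2, and a fit on the arrays compared gave 0. A fit on the level class of at least 8 alone also gave 0. It held 24 members and left out Peg12, which is in the lower class, so that 0 does not bear on the Peg12 call. In the arrays labelled RARaKO the block gave 1. Leaving out single arrays or whole sets gave 2 to 8 called members in vehicle, 2 to 7 in atRA, 0 to 1 in the WT response, and 0 in the RARaKO response and in the difference between responses. In vehicle 2 were called without set 3 and 3 without set 4. In atRA 2 were called without set 2 and 3 without set 3 or set 4. Without the RARaKO atRA array of set 2 there were 8 in vehicle and 7 in atRA.

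Over all probe sets, the replicate block called 339 in the WT response (214 without it), 167 in the RARaKO response (99), 1972 in vehicle (1131) and 2344 in atRA (1173), where the numbers are not shown to pair the arrays. In atRA the block called 7 members, adding Inpp5f and Trappc9, and it changed no call of a member beyond those given here and above. Array weights called 382 in the WT response and 2071 in vehicle. A fit on the arrays compared called 14 in the RARaKO response and 592 in atRA. The mean of all probe sets per gene called 684 genes in vehicle and 777 in atRA. Leaving out arrays or sets called 40 to 226 probe sets in the WT response, 2 to 88 in the RARaKO response, 217 to 1426 in vehicle, 320 to 1124 in atRA and 0 in the difference between responses. With 3 arrays per group and values centred per probe set, small differences such as those of Peg12, Mkrn3 and Cd81 lie near the threshold, and no level of a gene can be stated.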
